A study of Mus musculus with 2 samples.

Results

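The 34 genes described here encode proteins that copy the genome during S phase, and they were taken by symbol from the 32285 genes counted in each library. Every symbol matched a single gene. The list holds the MCM helicase (Mcm2, Mcm3, Mcm4, Mcm5, Mcm6 and Mcm7), the factors that load and start it (Cdc6, Cdt1, Mcm10, Cdc45, Gins1 and Gins2), polymerase and primase subunits (Prim1, Pola1 and Pold3), the sliding clamp with clamp loader and single-strand binding subunits (Pcna, Rfc2, Rfc4 and Rpa2), Okazaki fragment enzymes (Fen1 and Lig1), enzymes of nucleotide supply (Rrm1, Rrm2 and Tyms), factors that rebuild chromatin behind the fork (Chaf1a, Chaf1b, Uhrf1, Hells and Slbp), fork and checkpoint factors (Clspn, Tipin, Dtl and Exo1) and the transcription factor E2f1.

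In mammalian cells Cdc6 and Cdt1 load the ring-shaped MCM helicase onto replication origins in G1, and Cdc45 with the GINS complex turns it into the moving helicase of S phase. E2F transcription factors switch many of these genes on as a cell passes from G1 into S phase. A dividing tumor cell therefore carries many of these transcripts at once, while a resting cell carries few.

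KPCA cells are a line of mouse ovarian cancer made from fallopian tube epithelium, with a Trp53 R172H mutation and overexpressed Ccne1 and Akt2 among its changes. Both grafts lacked Fst, the gene of the activin antagonist follistatin. KPCA.FSTKO was the knockout line itself, and KPCA.FSTKO_hFSTL3 was 1 stable clone of it selected with geneticin after transfection of a human FSTL3 plasmid, so that clone and transgene cannot be told apart. Untreated female C57BL/6J mice of 12 to 16 weeks were grafted in the peritoneum, and omental tumors of 4 mice per genotype were pooled at day 10 into 1 single-cell library each. The comparison asks whether FSTL3 made by the cancer cells goes with another level of S-phase transcripts in cancer cells and in cells of the tumor microenvironment. Neither genotype had a second library, so nothing could be tested over replicates. Every 95% interval below covers counting error only, of UMIs or of barcodes within a library, and not the spread between tumors.

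After the filters on mitochondrial share and gene number, 6777 barcodes of KPCA.FSTKO and 4041 of KPCA.FSTKO_hFSTL3 remained, with medians of 17253 and 15071 unique molecular identifiers (UMIs), and 12 barcode sequences occurred in both libraries. Barcodes were sorted by the share of their UMIs in lists of marker genes, none of them a replication gene. This gave 3758 and 301 cancer-gated barcodes, 820 and 150 macrophage-gated barcodes, and 346 and 68 stromal-gated barcodes in the KPCA.FSTKO and KPCA.FSTKO_hFSTL3 libraries. All markers of the gated class were found in each of the 3 classes in both libraries. Since the gates were cut on these same lists, this is no check of the classes. All 12 macrophage and all 12 stromal markers also had UMIs in cancer-gated barcodes of both libraries. The KPCA.FSTKO_hFSTL3 library stood apart, since 3017 of its barcodes (74.7%) carried cancer, macrophage and stromal markers together, against 189 (2.79%) in KPCA.FSTKO. Those mixed-marker barcodes had a median mitochondrial share of 11.8% and a median of 1.02% of UMIs in pancreatic acinar genes, and they entered no comparison between the libraries. Fst, the deleted gene, was still counted at 5.10 CPM (UMIs of a gene scaled to the same total of UMIs in every class) in cancer-gated barcodes of KPCA.FSTKO and 8.51 CPM in those of KPCA.FSTKO_hFSTL3. In stromal-gated barcodes Fst was at 125 CPM in KPCA.FSTKO and 169 CPM in KPCA.FSTKO_hFSTL3. Whether the 3-prime tag lies outside the deleted stretch was not tested, nor was the source of the Fst UMIs in cancer-gated barcodes. Fst therefore does not check the label, and human FSTL3 was not counted.

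The replication genes took up about the same share of the transcripts in the cancer-gated barcodes of both libraries, while in macrophage-gated barcodes their share was 1.94 times (1.85 to 2.02) as high in KPCA.FSTKO_hFSTL3. Summed over the 34 genes, cancer-gated barcodes held 977 CPM (95% interval 971 to 983) in KPCA.FSTKO and 1002 CPM (982 to 1022) in KPCA.FSTKO_hFSTL3. Macrophage-gated barcodes held 579.9 CPM (566 to 594) and 1122 CPM (1083 to 1163). Stromal-gated barcodes held 411 CPM (395 to 427) and 549 CPM (514 to 586). The order of these sums thus differed between the libraries, with cancer-gated barcodes highest in KPCA.FSTKO and macrophage-gated barcodes highest in KPCA.FSTKO_hFSTL3. The second order turns round as a mean over barcodes, where the log2 ratio of cancer-gated over macrophage-gated barcodes was 0.18 in place of -0.16, and without the barcode filter, where it was 0.09. Mature red cells make no new DNA, yet erythroid-gated barcodes held 315 CPM (269 to 366) and 419 CPM (317 to 545). That gate set no limit on markers of other cells, and 34.5% and 30% of its barcodes held any replication-gene UMI. Its sums are therefore no measure of the free RNA in a droplet. Of the 3 classes the stromal sums lay closest to those of the erythroid barcodes. Fewer dividing cells and less of these transcripts per cell cannot be told apart in sums of this kind.

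**Figure D1:**
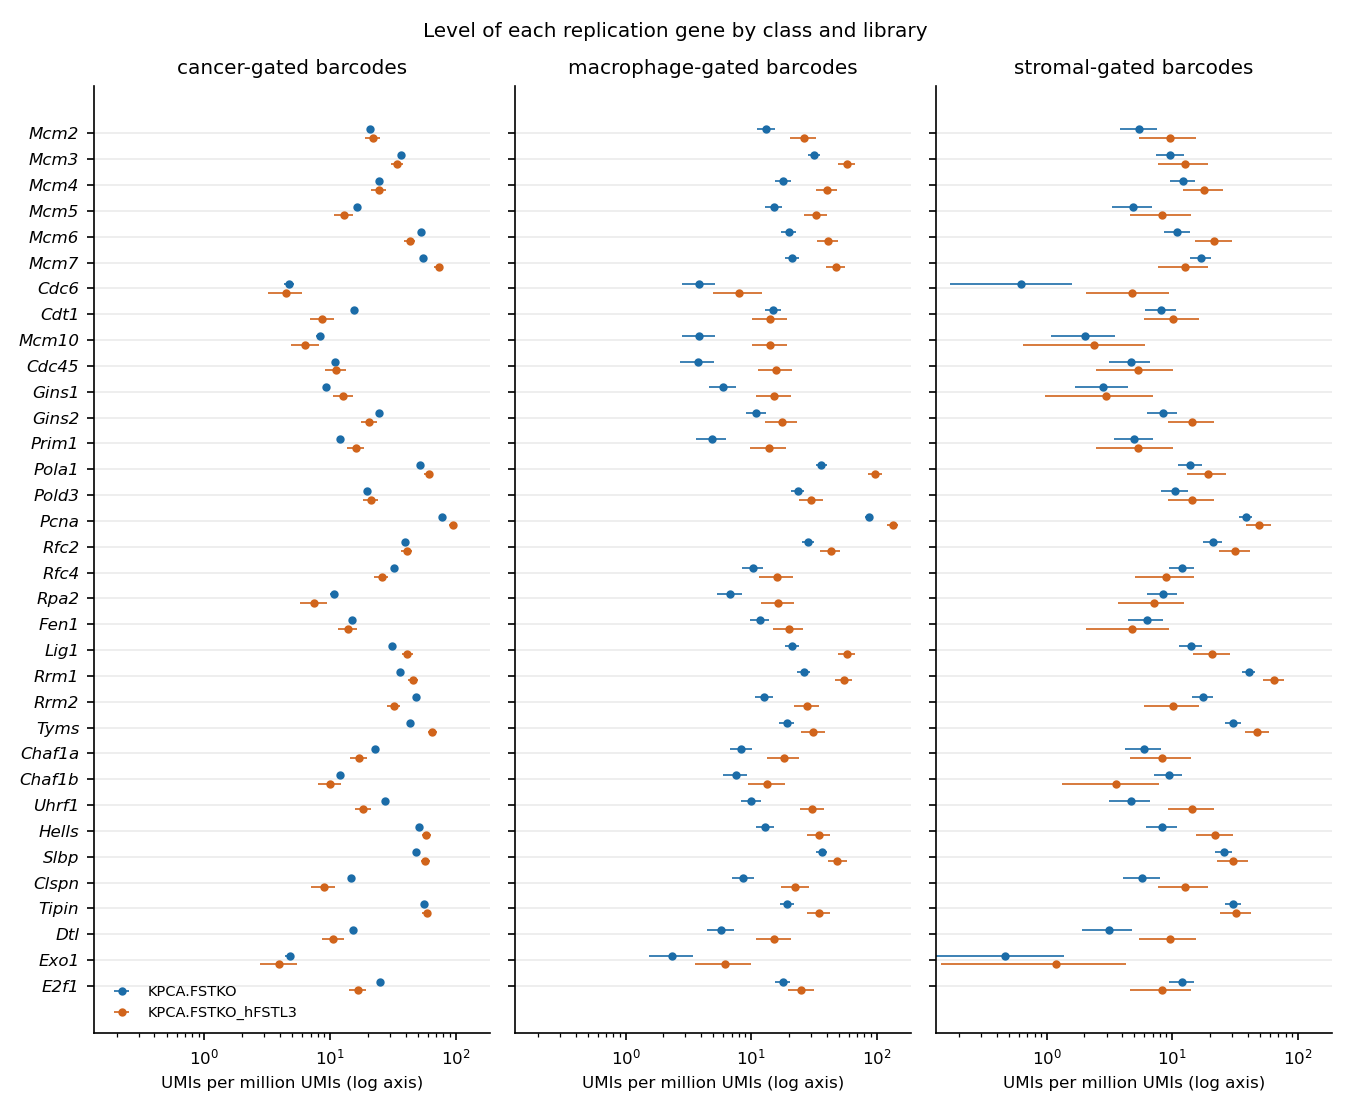
Level of each of the 34 replication genes, in CPM on a log axis, in cancer-gated, macrophage-gated and stromal-gated barcodes of the 2 libraries. Points are values of 1 pooled library and bars are exact Poisson 95% intervals. The points of both libraries lie close together in cancer-gated barcodes, and those of KPCA.FSTKO_hFSTL3 lie to the right for 33 of 34 genes in macrophage-gated barcodes.

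The MCM helicase, which unwinds the double helix ahead of the fork, was at 208 CPM over its 6 subunits in cancer-gated barcodes of KPCA.FSTKO and at 210.2 CPM in those of KPCA.FSTKO_hFSTL3. The ratio was 1.01 (0.966 to 1.06), so the sum of the ring subunits did not differ beyond counting error. Its subunits did not all follow the sum. Mcm7 was at 55.6 and 73.4 CPM, a ratio of 1.32 (1.22 to 1.43), Mcm6 at 53.1 and 43.2 CPM, a ratio of 0.813 (0.734 to 0.8996), and Mcm5 at 16.4 and 12.9 CPM, a ratio of 0.784 (0.646 to 0.943). Mcm2, Mcm3 and Mcm4 had intervals that included 1. In macrophage-gated barcodes the same 6 genes summed to 119 CPM and 245 CPM, a ratio of 2.05 (1.87 to 2.25), and there the 6 subunits lay close to each other, between 1.82 for Mcm3 and 2.23 for Mcm4.

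The promoters of 4 of these subunits are shown because each holds at least 2 matches to the E2F consensus, more than any other member. The windows come from RefSeq (build GRCm38.p6, the build of the authors' mm10 reference), run from 250 bases before to 50 bases after an annotated transcription start, and read in the direction of the gene. Capitals mark matches to TTTCCCGC, TTTCGCGC, TTTGCCGC or TTTGGCGC on either strand, and the Mcm5 stretch and the first stretch of Mcm6 each hold a pair of overlapping matches. The windows lie at chr1:20820263-20820562 (minus strand, Mcm3), chr8:75109259-75109558 (plus strand, Mcm5), chr1:128359656-128359955 (minus strand, Mcm6) and chr5:138171834-138172133 (minus strand, Mcm7).
Mcm3: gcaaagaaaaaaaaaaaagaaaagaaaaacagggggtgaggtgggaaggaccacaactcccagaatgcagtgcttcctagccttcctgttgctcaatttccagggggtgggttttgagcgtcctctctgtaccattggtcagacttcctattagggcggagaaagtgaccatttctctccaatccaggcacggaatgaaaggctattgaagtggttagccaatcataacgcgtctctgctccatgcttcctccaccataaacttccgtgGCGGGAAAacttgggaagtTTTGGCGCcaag
Mcm5: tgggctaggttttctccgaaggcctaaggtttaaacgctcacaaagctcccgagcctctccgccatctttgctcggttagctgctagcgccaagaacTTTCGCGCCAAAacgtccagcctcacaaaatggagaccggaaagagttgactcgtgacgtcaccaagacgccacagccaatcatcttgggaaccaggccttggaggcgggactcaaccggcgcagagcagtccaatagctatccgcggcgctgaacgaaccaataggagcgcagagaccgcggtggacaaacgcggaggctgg
Mcm6: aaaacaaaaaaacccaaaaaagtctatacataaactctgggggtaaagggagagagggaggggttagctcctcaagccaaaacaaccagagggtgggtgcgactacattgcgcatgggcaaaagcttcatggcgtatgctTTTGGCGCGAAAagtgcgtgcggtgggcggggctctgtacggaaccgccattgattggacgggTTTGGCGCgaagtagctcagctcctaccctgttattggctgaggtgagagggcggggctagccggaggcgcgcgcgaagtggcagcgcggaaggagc
Mcm7: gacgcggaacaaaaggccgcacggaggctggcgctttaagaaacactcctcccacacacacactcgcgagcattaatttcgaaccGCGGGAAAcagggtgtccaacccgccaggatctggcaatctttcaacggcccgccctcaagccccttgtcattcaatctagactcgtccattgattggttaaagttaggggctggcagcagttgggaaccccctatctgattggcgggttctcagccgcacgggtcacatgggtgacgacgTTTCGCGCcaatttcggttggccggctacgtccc
Of the 34 genes, 28 had such a window, and 13 of these (46.4%) held at least 1 E2F match, against 704 of 27025 genes (2.60%) among all genes with a window. The other 9 members with a match were Cdc6, Cdt1, Clspn, Dtl, Hells, Lig1, Pola1, Pold3 and Uhrf1. The CHR motif (TTTGAA or TTCGAA on either strand), known from promoters of G2 and M phase genes, was in 4 of the 28 (14.3%), in 21 of 28 promoters of a list of G2/M genes and in 21.7% of all. The CCAAT box (either strand), which NF-Y binds, was in 18 of the 28 replication genes (64.3%), in 21 of the 28 G2/M genes and in 41.1% of all genes. A match is a description of letters, and no binding was measured here. The median log2 ratio between the libraries of members with (n = 13) and without (n = 15) an E2F match was -0.11 and -0.13 in cancer-gated barcodes, 1.15 and 1.00 in macrophage-gated barcodes and 0.79 and 0.20 in stromal-gated barcodes. For cancer-gated over stromal-gated barcodes of KPCA.FSTKO it was 1.92 and 1.23, and the ranges of members with and without a match overlapped in each of these comparisons.

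**Figure D2:**
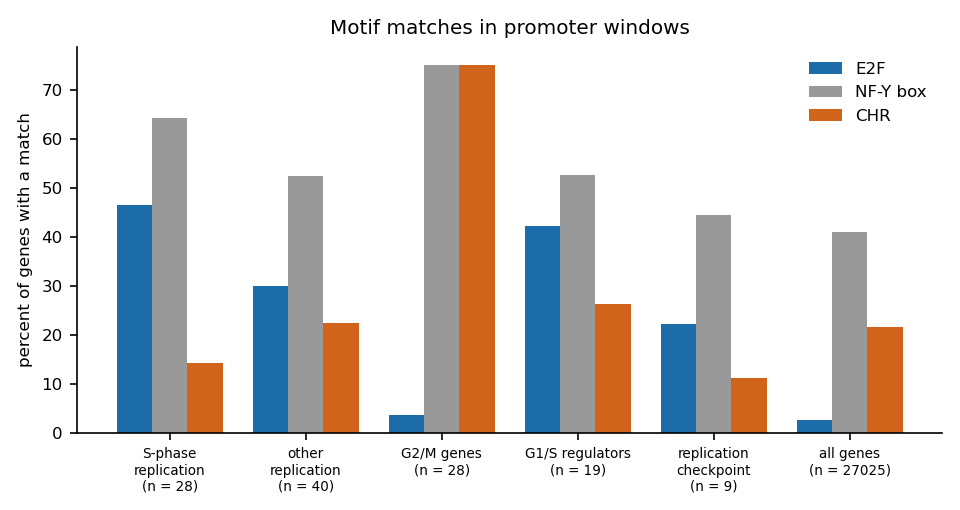
Percent of genes whose promoter window (250 bases before to 50 bases after a RefSeq start) holds at least 1 match to the E2F, NF-Y or CHR motif, for the replication genes, 4 related gene lists and all genes with a window. Numbers under the names give the genes with a window. The replication genes stand at 46.4% for E2F and 14.3% for CHR, and the G2/M genes at 3.57% for E2F.

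The licensing factors together and the transcription factor E2f1 had the lowest group ratios in cancer-gated barcodes, 0.655 (0.542 to 0.785) and 0.657 (0.555 to 0.772). E2f1, which drives the entry into S phase, was at 25.3 CPM in KPCA.FSTKO and 16.6 CPM in KPCA.FSTKO_hFSTL3. Cdt1, which brings the MCM ring to the origin and is destroyed once S phase starts, was at 15.4 CPM in KPCA.FSTKO and 8.72 CPM in KPCA.FSTKO_hFSTL3, a ratio of 0.566 (0.448 to 0.707). Cdc6, its ATPase partner, was at 4.72 and 4.47 CPM, with an interval that included 1. In macrophage-gated barcodes Cdt1 was the exception among the 34 genes, with 15.0 and 14.2 CPM and a ratio of 0.947 (0.650 to 1.35).

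The helicase activators differed from each other as well. Gins1, a subunit of the 4-part GINS ring that holds the active helicase together, was at 9.30 and 12.8 CPM in cancer-gated barcodes (ratio 1.37, 1.13 to 1.66). Its partner Gins2 was at 24.4 and 20.5 CPM (ratio 0.841, 0.723 to 0.973). Cdc45, the third part of the active helicase, was level at 11.0 and 11.2 CPM, and Mcm10, which helps to fire the origin, was at 8.29 and 6.38 CPM, a ratio of 0.769 (0.582 to 1.00). In macrophage-gated barcodes the 4 activators together were at 24.6 and 62.6 CPM, a ratio of 2.55 (2.09 to 3.09). Cdc45 and Mcm10 had the widest gaps there, with 42 and 43 UMIs against 43 and 39 UMIs in fewer barcodes, or ratios of 4.15 (2.65 to 6.51) and 3.68 (2.32 to 5.81), but neither reached the 100 UMIs set for the count of genes.

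Genes of DNA synthesis went both ways in cancer-gated barcodes, all of them short of 2 times. The catalytic primase subunit Prim1 was at 11.95 and 16.1 CPM (ratio 1.34, 1.13 to 1.59), Pola1, the catalytic subunit of polymerase alpha, at 52.6 and 61.3 CPM (1.17, 1.07 to 1.27), and Lig1, the ligase that seals Okazaki fragments, at 31.0 and 41.3 CPM (1.33, 1.20 to 1.48). Pcna, the clamp that holds polymerases on DNA, was at 78.1 and 95.5 CPM (1.22, 1.14 to 1.31). Pold3, a subunit of polymerase delta, Fen1, the flap nuclease, and Rfc2, a clamp loader subunit, had intervals that included 1. Rfc4 of the same loader was at 32.5 and 25.7 CPM (0.793, 0.694 to 0.904), and the single-strand binding subunit Rpa2 also lay below 1 (0.697, 0.540 to 0.887). In macrophage-gated barcodes Lig1 was at 21.3 and 57.9 CPM (2.72, 2.21 to 3.34) and Pola1 at 36.2 and 97.2 CPM (2.69, 2.29 to 3.14). Pcna there was at 86.3 and 135 CPM (1.56, 1.38 to 1.76), and Pold3 at 23.5 and 30.2 CPM, with an interval that included 1.

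Nucleotide supply split within 1 enzyme. Ribonucleotide reductase makes deoxynucleotides from a large subunit, Rrm1, and a small subunit, Rrm2. In cancer-gated barcodes Rrm1 was at 36.1 and 46.2 CPM (ratio 1.28, 1.16 to 1.41) and Rrm2 at 48.2 and 32.2 CPM (0.668, 0.593 to 0.7504). Tyms, the thymidylate synthase, had the highest ratio of the 34 genes in that class, at 43.6 and 65.4 CPM (1.499, 1.38 to 1.63). In macrophage-gated barcodes all 3 were higher in KPCA.FSTKO_hFSTL3, with Rrm1 at 26.3 and 54.6 CPM (2.08, 1.69 to 2.54) and Rrm2 at 12.7 and 28.0 CPM (2.21, 1.66 to 2.94). Rrm1 was also the single member below 1 for cancer-gated over stromal-gated barcodes of KPCA.FSTKO, at 36.1 against 40.6 CPM (0.888, 0.783 to 1.01), and it was at 46.2 against 64.5 CPM (0.716, 0.578 to 0.892) in KPCA.FSTKO_hFSTL3.

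Chromatin and checkpoint genes went both ways in cancer-gated barcodes. Uhrf1, which guides DNA methylation onto the new strand, was at 27.3 and 18.4 CPM (ratio 0.675, 0.576 to 0.787), and Chaf1a, a histone chaperone subunit, at 22.7 and 16.9 CPM (0.746, 0.631 to 0.876). Clspn, the checkpoint adaptor claspin, was at 14.6 and 8.93 CPM (0.613, 0.486 to 0.763), and Dtl, a part of the ubiquitin ligase that removes Cdt1 in S phase, at 15.3 and 10.6 CPM (0.693, 0.561 to 0.849). Rpa2, which coats single-stranded DNA, was at 10.7 and 7.45 CPM (0.697, 0.540 to 0.887). Hells, a chromatin remodeller, and Slbp, which binds histone mRNA, were on the other side with ratios of 1.15 (1.05 to 1.25) and 1.20 (1.09 to 1.31). Chaf1b, the partner of Chaf1a, Tipin, which protects stalled forks, and the nuclease Exo1 had intervals that included 1. In macrophage-gated barcodes Uhrf1 was at 10.1 and 30.6 CPM, a ratio of 3.04 (2.26 to 4.07), Hells at 13.0 and 34.6 CPM (2.66, 2.03 to 3.46), Clspn at 8.62 and 22.6 CPM (2.62, 1.87 to 3.64) and Dtl at 5.75 and 15.3 CPM (2.66, 1.76 to 3.99).

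Counted over the list, none of the 34 genes differed by 2 times or more between the libraries in cancer-gated barcodes, in either direction. Among all 12997 genes with at least 100 UMIs there, 3.19% were at least 2 times higher and 7.16% at least 2 times lower in KPCA.FSTKO_hFSTL3. The interval lay above 1 for 10 members and below 1 for 13, but intervals in this class alone were not counted over all genes. The median log2 ratio of the members was -0.10 against 0.00 for all genes. At a ratio of 1.5 in place of 2, 3 members were lower, beside 14.3% of all genes. The summed level gave a ratio of 1.03 (1.00 to 1.05), or 0.04 on the log2 scale, which turned to -0.05 with TMM scaling, a scaling that shifts every gene of the class by -0.09.

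In macrophage-gated barcodes 20 of the 34 genes were at least 2 times higher in KPCA.FSTKO_hFSTL3 and none was 2 times lower. Of the 29 members with at least 100 UMIs, 15 were at least 2 times higher, while among all 8733 genes with that many UMIs 1.53% were higher and 1.40% lower by this size. At a ratio of 1.5 in place of 2, 25 of the 29 were higher, beside 7.33% of all genes. Intervals lay above 1 for 32 of the 34 genes, all but Cdt1 and Pold3, with no count of such intervals over all genes in this class alone. For 11 of the 29 members with at least 100 UMIs in both classes the interval lay below 1 in cancer-gated and above 1 in macrophage-gated barcodes, beside 5.17% of 8258 genes. The median log2 ratio of the 34 genes was 1.08, and that of all genes with at least 100 UMIs was 0.10. The summed ratio was 1.94 (1.85 to 2.02), or 0.95 on the log2 scale, and it was 0.81 with TMM scaling, which shifts every gene of this class by -0.14.

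Markers of other cells moved in different directions beside the macrophage result. The 10 cancer markers summed to 253 CPM in macrophage-gated barcodes of KPCA.FSTKO and 144 CPM in those of KPCA.FSTKO_hFSTL3, and the 12 stromal markers to 115 and 68.4 CPM, with all but Pdgfra in the second library above 0. The 19 pancreatic acinar genes went the other way, at 103 and 1363 CPM. Where barcodes with 1% or more acinar UMIs were left out, the summed log2 ratio was 0.96 and 15 members were again past 2 times. Among macrophage-gated barcodes without any UMI of Krt7, Krt8, Krt18 or Krt19, a limit added after the values were seen, it was 0.79 and 3 of 8 members were past 2 times higher, beside 1.76% of 5159 genes. Whether the differences in other markers play a part in the macrophage result was not tested.

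**Figure D3:**
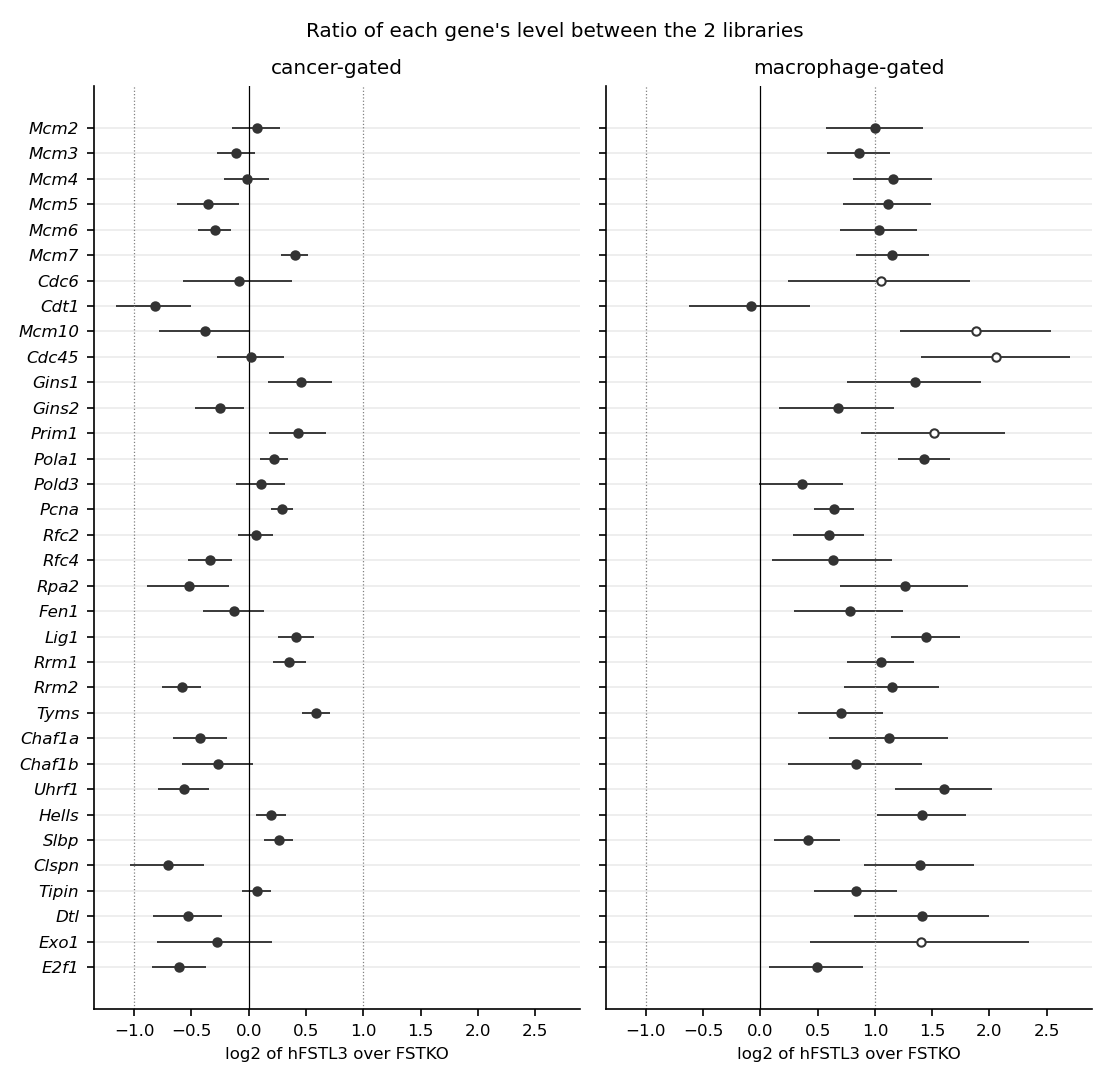
Log2 ratio of the level of each replication gene in KPCA.FSTKO_hFSTL3 over KPCA.FSTKO, in cancer-gated and macrophage-gated barcodes. Points are the ratio of 1 library to the other with its conditional binomial 95% interval, open points mark genes under 100 UMIs, and dotted lines mark a ratio of 2 in either direction. Cancer-gated values lie on both sides of 0, from -0.82 for Cdt1 to 0.58 for Tyms, and macrophage-gated values run from -0.08 for Cdt1 to 2.05 for Cdc45.

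Stromal-gated barcodes were fewer, and their values less exact. The summed ratio of KPCA.FSTKO_hFSTL3 over KPCA.FSTKO was 1.34 (1.24 to 1.44), or 0.42 on the log2 scale, which was 0.09 with the stricter gate, whose interval of -0.07 to 0.25 included 0. Only 12 members had at least 100 UMIs, and none of them was past 2 times, against 1.5% higher and 1.76% lower of 8068 genes. Over all 34 members 27 ratios were above 1, with 10 intervals above 1 and 2 below, those of Rrm2 (0.580, 0.326 to 0.971) and Chaf1b (0.382, 0.135 to 0.882). No share of all genes was computed for these intervals. Hells was at 8.28 and 22.1 CPM (2.67, 1.71 to 4.14) and Uhrf1 at 4.69 and 14.3 CPM (3.06, 1.71 to 5.41), on 90 and 54 UMIs in all.

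Within KPCA.FSTKO the cancer-gated barcodes held 1.69 times (1.64 to 1.73) the macrophage-gated level and 2.38 times (2.29 to 2.47) the stromal-gated level. Against macrophages 15 of the 34 genes were at least 2 times higher, a share of the list that is set beside 32.3% higher and 16% lower among all genes. Hells (51.0 against 13.0 CPM), Rrm2 (48.2 against 12.7 CPM) and Rfc4 (32.5 against 10.3 CPM) had the largest ratios, while Pcna (78.1 against 86.3 CPM) and Pold3 (19.7 against 23.5 CPM) were lower in cancer-gated barcodes. Against stromal-gated barcodes 25 members were at least 2 times higher and none lower, beside 18.9% and 14.6% of all genes.

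Within KPCA.FSTKO_hFSTL3 the order was different. Cancer-gated over macrophage-gated gave 0.892 (0.857 to 0.930), with Tyms alone past 2 times higher and Mcm5, Rpa2 and Clspn past 2 times lower among the 31 members with at least 100 UMIs, beside 26.0% higher and 17.6% lower of all genes. This direction turned round as a mean over barcodes and without the barcode filter. Cancer-gated over stromal-gated gave 1.83 (1.71 to 1.96), with 14 of 29 members past 2 times higher and none lower, beside 16.3% and 12.6% of all genes, and its log2 value of 0.87 was 1.47 with the stricter gate.

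Sums over a class hide that a minority of barcodes carried much of this RNA. Each barcode was thinned at random to 5000 UMIs, which left out 342 cancer-gated, 62 macrophage-gated and 15 stromal-gated barcodes of KPCA.FSTKO and 87, 10 and 6 of KPCA.FSTKO_hFSTL3. A barcode was called high when at least 10 of the 5000 UMIs, or 0.2%, came from the 34 genes. In cancer-gated barcodes 438 of 3416 were high in KPCA.FSTKO (12.8%, 11.7 to 14.0) and 38 of 214 in KPCA.FSTKO_hFSTL3 (17.8%, 12.9 to 23.6), with intervals that overlapped. Such intervals treat the barcodes of a pooled library as independent and leave out the spread between tumors. Averaged over all possible draws the shares were 12.5% and 15.5%, and without thinning 12.3% and 14.3%. The high barcodes held 46.0% and 54.8% of the replication-gene UMIs of their class.

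In macrophage-gated barcodes these intervals over barcodes did not overlap between the libraries, which is no test of a difference between genotypes. In KPCA.FSTKO 33 of 758 were high (4.35%, 3.02 to 6.06) and in KPCA.FSTKO_hFSTL3 24 of 140 (17.1%, 11.3 to 24.4), with 4.65% and 15.7% averaged over all draws and 3.90% and 13.3% unthinned. The remaining macrophage-gated barcodes carried on average 2.00 and 2.04 UMIs of 5000 and the high ones 16.9 and 19.1. These means are held under 10 by the limit itself. Leaving out the high barcodes, a larger share of the barcodes in the second library, lowers the log2 ratio between the libraries by construction, to 0.25 from 0.95, whereas it was 1.03 without the 5% of barcodes with most replication-gene UMIs in each library. Both limits were chosen after the values were seen. The high barcodes held 27.8% of the replication-gene UMIs of the class in KPCA.FSTKO and 65.9% in KPCA.FSTKO_hFSTL3. Cancer markers, which the gate itself held under 0.2% of UMIs, had medians of 0.0174% in the high barcodes against 0.0195% in the rest in KPCA.FSTKO. In KPCA.FSTKO_hFSTL3 the medians were 0.0060% against 0.0093%. Where the replication-gene UMIs of the high barcodes came from was not tested. Macrophage markers made up a median of 2.07% of UMIs in the high barcodes of KPCA.FSTKO and 3.16% in those of KPCA.FSTKO_hFSTL3, against 2.34% and 2.28% in the rest. Few barcodes lay near the limit, with 8 just inside (10 or 11 UMIs) and 7 just outside (8 or 9 UMIs) in KPCA.FSTKO and 4 and 0 in KPCA.FSTKO_hFSTL3. Among cancer-gated barcodes 94 lay just inside and 124 just outside in KPCA.FSTKO, and 14 and 6 in KPCA.FSTKO_hFSTL3.

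High stromal-gated barcodes were rare, 4 of 331 in KPCA.FSTKO (1.21%, 0.330 to 3.07) and 4 of 62 in KPCA.FSTKO_hFSTL3 (6.45%, 1.79 to 15.7). Among erythroid-gated barcodes, whose gate set no limit on other markers, 1 of 32 in KPCA.FSTKO and 0 of 8 in KPCA.FSTKO_hFSTL3 were high. There 52 and 2 were left out as too shallow, with median depths of 4381 and 6166 UMIs before that step. The erythroid share of 3.13% has an interval (0.0791 to 16.2) too wide to set any class against it. In KPCA.FSTKO the erythroid share was 0.191% averaged over all draws and 0 of 84 unthinned, against 1.32% and 1.45% for stromal-gated barcodes. Neutrophil-gated barcodes could not serve as background, since 1 of 94 reached 5000 UMIs.

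**Figure D4:**
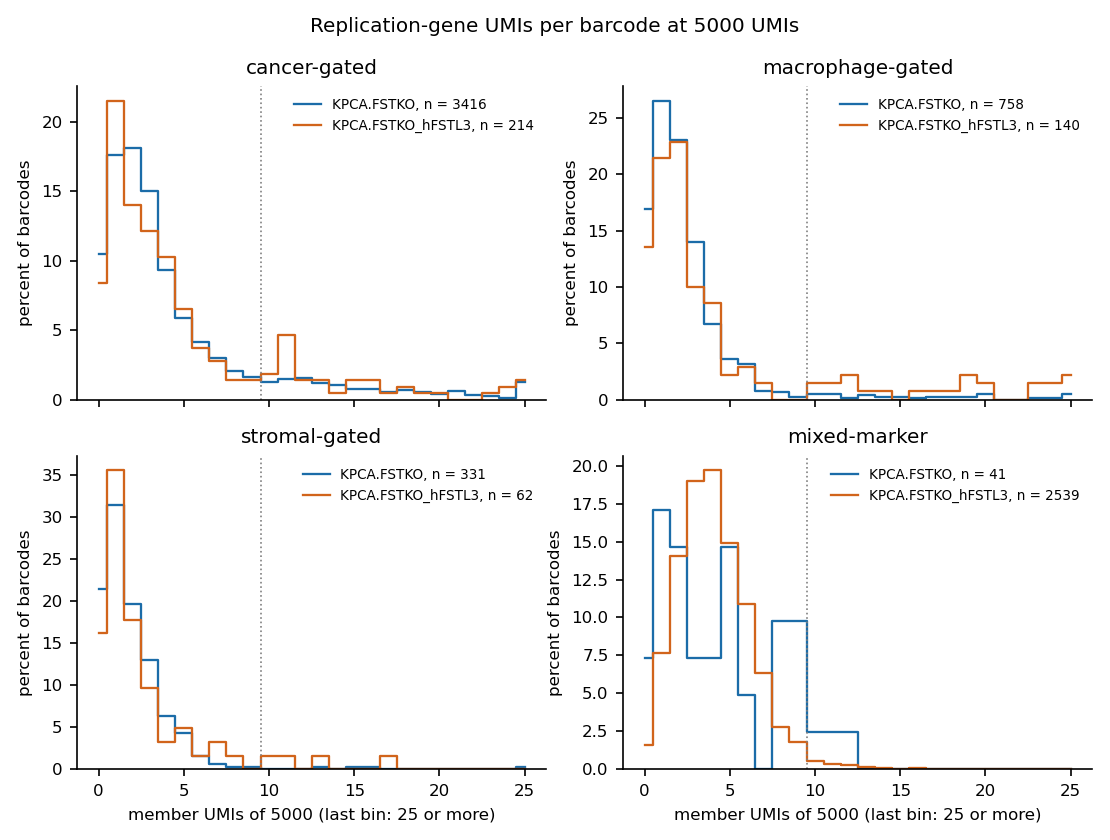
Distribution of replication-gene UMIs per barcode after thinning to 5000 UMIs, as percent of barcodes, for cancer-gated, macrophage-gated, stromal-gated and mixed-marker barcodes of the 2 libraries. The dotted line marks the limit for high barcodes and the last bin holds barcodes with 25 or more. The macrophage-gated curves overlap below the limit and separate above it, with 4.35% and 17.1% of barcodes beyond, while the mixed-marker curve of KPCA.FSTKO_hFSTL3 is a single narrow peak.

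The replication genes varied together from barcode to barcode. For each gene, the 3758 cancer-gated barcodes of KPCA.FSTKO were ranked by the share of UMIs of the other 33 genes. The gene's level in the top 25% was then set against the bottom 25%, with 940 barcodes in each. All 34 genes were at least 2 times higher in the top, with a median ratio of 6.65. The widest ratios were those of Exo1, a nuclease of mismatch repair (15.9 against 0.251 CPM, 63.4 times, 28.9 to 174), Mcm10 (26.8 against 0.627 CPM, 42.7 times), Mcm5 (48.9 against 1.34 CPM, 36.6 times) and Cdc6 (15.2 against 0.460 CPM, 33.1 times). Pold3 (31.1 against 15.1 CPM, 2.05 times), Slbp (84.5 against 31.2 CPM, 2.71 times) and E2f1 (45.3 against 16.6 CPM, 2.72 times) had the narrowest. The median ratio was 10.6 for the 13 members with an E2F match and 6.42 for the 15 without, with ranges that overlapped. Barcodes ranked by the whole list were deeper at the top, with a median of 32511 against 24139 UMIs, and among 11594 other genes with at least 100 UMIs 6.12% were at least 2 times higher there.

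The same ranking in macrophage-gated barcodes gave 31 of 34 genes at 2 times or more in KPCA.FSTKO (median 4.98) and 29 of the 29 genes that had a ratio in KPCA.FSTKO_hFSTL3 (median 7.95), beside 1.74% and 3.14% of the other genes with at least 100 UMIs. In cancer-gated barcodes of KPCA.FSTKO_hFSTL3 it was 33 of 33 (median 10.9), beside 6.11% of other genes, and in stromal-gated barcodes of KPCA.FSTKO 21 of 31 (median 2.52), beside 1.61%. In the 3017 mixed-marker barcodes of KPCA.FSTKO_hFSTL3 none of the 34 genes reached 2 times, beside 0.00963% of other genes, and the median was 1.06. These barcodes summed to 824 CPM (817 to 832), and 34 of 2539 (1.34%, 0.929 to 1.87) were high. The variance of their thinned UMIs was 1.09 times the mean, against 6.16 in cancer-gated barcodes of KPCA.FSTKO and 11.5 in macrophage-gated barcodes of KPCA.FSTKO_hFSTL3.

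**Figure D5:**
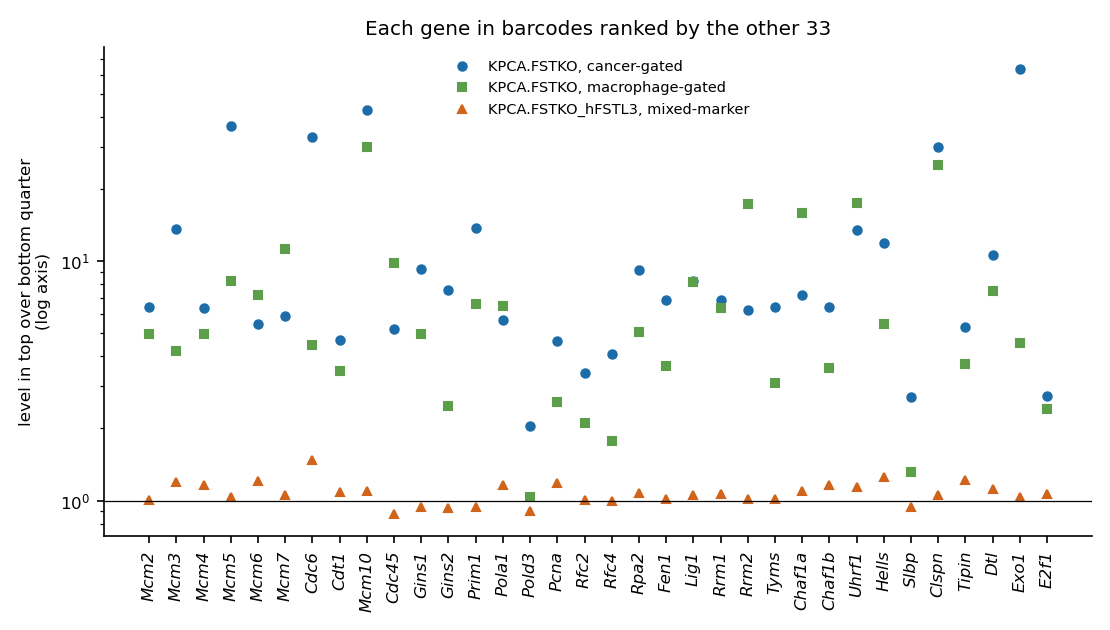
Ratio of the level of each replication gene in the 25% of barcodes with the highest share of the other 33 genes over the 25% with the lowest, on a log axis, for cancer-gated and macrophage-gated barcodes of KPCA.FSTKO and mixed-marker barcodes of KPCA.FSTKO_hFSTL3. Points are values within 1 library and the line marks a ratio of 1. Cancer-gated values run from 2.05 to 63.4, and mixed-marker values stay between 0.880 and 1.48.

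Genes of the neighbouring steps were read from 4 lists. In the same ranking of cancer-gated barcodes of KPCA.FSTKO, 37 of 49 other replication genes, 33 of 33 G2/M genes, 10 of 14 replication checkpoint genes and 10 of 26 G1/S regulators were at least 2 times higher in the top 25%. A barcode high in replication genes was often high in G2/M genes too. With the same limit of 10 UMIs for both lists, 8.87% of cancer-gated barcodes of KPCA.FSTKO were high in both, 3.95% in replication genes alone, 14.0% in G2/M genes alone and 73.2% in neither. The shares in KPCA.FSTKO_hFSTL3 were 11.2%, 6.54%, 17.3% and 65.0%. In macrophage-gated barcodes 2.11% and 9.29% were high in both, 2.24% and 7.86% in replication genes alone, and 3.30% and 4.29% in G2/M genes alone.

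Between the libraries, the 49 other replication genes summed to 1796 CPM in cancer-gated barcodes of KPCA.FSTKO and 1823 CPM in those of KPCA.FSTKO_hFSTL3, with 0 past 2 times higher and 1 lower, Gins3 (2.56 and 1.28 CPM), another GINS subunit. Pold4 (236 and 233 CPM), a small subunit of polymerase delta, Rnaseh2c (149 and 90.6 CPM), a subunit of RNase H2, Dut (171.8 and 208.5 CPM), which removes dUTP, and Rfc1 (78.2 and 90.1 CPM), the large clamp loader subunit, held most UMIs of that list. None of the 33 G2/M genes was past 2 times, and Hmgb2, Ube2c, Top2a and Smc4, which held most UMIs of that list, had ratios of 0.825, 0.709, 0.923 and 1.03. Of the 26 G1/S regulators, the D-type cyclin Ccnd2 was higher at 58.0 and 122 CPM (2.11, 1.98 to 2.25), and the CDK inhibitors Cdkn2c (21.96 and 11.0 CPM) and Cdkn1c (228 UMIs and 2 UMIs, ratio 0.101, 0.0122 to 0.370) were lower. Ccnd1 (714 and 994 CPM), Cdkn2a (685 and 485 CPM), Cdk6 (173 and 261 CPM) and Cdk4 (176 and 208 CPM) held most UMIs there. None of the 14 checkpoint genes was past 2 times, with Wee1, the kinase that restrains CDK1, at 37.9 and 27.3 CPM, Rad17 at 24.2 and 32.0 CPM and Brca2 at 19.6 and 19.0 CPM. Beside these counts, 3.19% of all genes of this class were at least 2 times higher and 7.16% lower.

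In macrophage-gated barcodes the neighbouring lists were higher in KPCA.FSTKO_hFSTL3 too, by less. The other replication genes summed to a ratio of 1.40 (1.35 to 1.46), with 7 of 38 past 2 times higher and 0 lower, and the G2/M genes to 1.48 (1.42 to 1.54), with 8 of 28 and 0. The checkpoint genes had 1 of 6 past 2 times higher and 0 lower, and the G1/S regulators 1 of 20 in each direction. Among all genes of this class with at least 100 UMIs, 1.53% were higher and 1.40% lower by this size. The helicase and nuclease Dna2 (8.53 and 27.7 CPM) and the histone chaperone Asf1b (7.27 and 22.9 CPM) were among the 7, and are named here after their values were seen. Top2a, the topoisomerase of dividing cells, was at 50.8 and 104 CPM. In stromal-gated barcodes it was the G2/M genes that stood further apart, with a ratio of 2.15 (2.04 to 2.26) and 14 of 19 past 2 times higher.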

How the data were processed

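Omental tumors were profiled by 10x 3-prime single-cell RNA sequencing, 1 pooled library per genotype. The values are counts of UMIs per gene and barcode that the authors made with Cell Ranger against mm10. The submitters' notes name version 3.1.0 and the deposited file header names 7.2.0. Barcodes with under 20% mitochondrial UMIs and between 200 and 8000 genes were kept, and doublets were kept, since the study's methods name no step against them. Scrublet marked 86 barcodes (1.27%) of KPCA.FSTKO and 1 (0.0248%) of KPCA.FSTKO_hFSTL3.

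Classes were cut by the percent of a barcode's UMIs in marker lists: at least 0.2% cancer, 0.75% macrophage or 1% stromal markers and few of the others, with at least 1000 UMIs. Mixed-marker barcodes had at least 0.1% cancer, 0.1% macrophage and 0.05% stromal markers. The gate limits were set after the marker shares were seen and without the replication genes. UMIs were summed per class and library and given as CPM with exact Poisson intervals. Ratios have conditional binomial and shares Clopper-Pearson intervals, all at 95%. With 1 library per genotype nothing was tested, and a gene counted as higher or lower at a ratio of 2 with at least 100 UMIs over both sides. TMM factors came from edgeR 4.0.16 and were used for scaling alone. The steps were tested on simulated data.

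The members, gene lists, gates and comparisons were chosen with earlier results of these data known. Named are all 34 members and, of each related list, up to 4 genes per direction past a ratio of 2 in cancer-gated barcodes and the 4 with most UMIs there, apart from a gene that is not reported here. Alternatives covered barcode filters, gates, acinar share, doublets, scaling, limits of size and of depth, and averaging over barcodes. Ungated barcodes (1338 and 467) entered no comparison.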

Additional observations from a re-analysis of the deposited data

Results flagged for a closer look

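For 11 of the 34 genes the ratio of KPCA.FSTKO_hFSTL3 over KPCA.FSTKO lay below 1 in cancer-gated and above 1 in macrophage-gated barcodes, each with a counting interval that excluded 1. All 11 were among the 29 members with at least 100 UMIs in both classes, and the same held for 427 of 8258 genes (5.17%). With 1 library per genotype the difference between the classes was not tested. On the log2 scale, macrophage-gated minus cancer-gated, it was 2.17 for Uhrf1, 2.10 for Clspn, 1.94 for Dtl, 1.78 for Rpa2, 1.73 for Rrm2, 1.55 for Chaf1a, 1.46 for Mcm5, 1.33 for Mcm6, 1.098 for E2f1, 0.97 for Rfc4 and 0.925 for Gins2.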

How the results depend on the processing

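No paired analysis was possible because each genotype had 1 library and no result comes from a test. Of 135 recomputed values 97 moved by less than their counting interval (for numbers of genes, by at most 1.5 times) and 38 by more. The 38 include settings that redefine what is counted, such as other limits for high barcodes and the ratio of 1.5. For the rest the cause was not tested. The 97 include settings that could change nothing. Scrublet marked 0 cancer-gated, macrophage-gated or stromal-gated barcodes of KPCA.FSTKO_hFSTL3, and a limit of 20 UMIs kept the same 34 members in cancer-gated barcodes. The log2 ratio of the summed replication genes between the libraries was 0.04 in cancer-gated barcodes, but 0.22 without a barcode filter, 0.16 as a mean over barcodes and -0.05 with TMM scaling. In macrophage-gated barcodes it was 0.95, but 1.04 with the stricter gate, 0.79 as a mean over barcodes and 0.81 with TMM scaling. Among alternatives chosen after seeing the data, it was 1.03 without the 5% of barcodes with most replication-gene UMIs, 0.79 without keratin UMIs and, by construction lower, 0.25 without the high barcodes. In stromal-gated barcodes 0.42 became 0.092 with the stricter gate and 0.29 without the top 5%. Cancer-gated over macrophage-gated, 0.75 in KPCA.FSTKO became 0.79 without a filter, 0.81 as a mean and 0.865 without Pcna. In KPCA.FSTKO_hFSTL3 -0.16 became -0.24 with the stricter gate, 0.085 without a filter and 0.175 as a mean, so its direction depends on these settings. Cancer-gated over stromal-gated, 1.25 in KPCA.FSTKO became 1.52 with the stricter gate, and 0.87 in KPCA.FSTKO_hFSTL3 became 1.47 with that gate, 1.13 without a filter and 0.97 as a mean.

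At a ratio of 1.5 in place of 2, 3 genes were lower in cancer-gated barcodes (14.3% of all genes) and 25 higher in macrophage-gated ones (7.33%), where the keratin limit left 3 of 8 (1.76%). The share of high barcodes was 29.8% of cancer-gated, 11.9% of macrophage-gated and 6.93% of stromal-gated barcodes of KPCA.FSTKO at a limit of 0.1%, and 2.94%, 1.34% and 0.171% at 0.4%. For KPCA.FSTKO_hFSTL3 it was 35.1% and 24.9% of cancer-gated and macrophage-gated barcodes at 0.1%, and 3.11%, 5.27% and, for stromal-gated ones, 1.23% at 0.4%. Cancer-gated KPCA.FSTKO barcodes gave 15.4% when thinned to 2000 UMIs and 14.8% with the stricter gate. Without keratin UMIs the macrophage-gated shares lay closer together, at 5.63% of 204 barcodes in KPCA.FSTKO and 11.2% of 53 in KPCA.FSTKO_hFSTL3. With all macrophage-gated barcodes they were 4.65% and 15.7%, likewise averaged over all draws. The few gated barcodes of KPCA.FSTKO_hFSTL3 limit the depth of each of its values.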

Other observations

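T and NK cells, few in both libraries, held the highest summed level of the replication genes of any gated class, 1174 CPM (1076 to 1279) over 73 barcodes of KPCA.FSTKO and 1937 CPM (1667 to 2238) over 11 barcodes of KPCA.FSTKO_hFSTL3. After thinning, 6 of 29 T/NK-gated barcodes were high in KPCA.FSTKO (20.7%, 7.99 to 39.7) and 1 of 5 in KPCA.FSTKO_hFSTL3. That step left out 44 and 6 T/NK-gated barcodes as too shallow, and without thinning 8.22% and 18.2% were high. Endothelial-gated barcodes held 817 CPM (756 to 882) and 782 CPM (669 to 908) over 75 and 17 barcodes. After thinning, which left out 34 and 6 of them, 5 of 41 and 1 of 11 were high, and without thinning 5.33% and 5.88%. Neutrophil-gated barcodes of KPCA.FSTKO held 433 CPM (357 to 521). Barcodes without a class held 632 and 715 CPM.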
